A study of Mus musculus with 24 samples.

Results

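The muscle miRNAs mmu-miR-1a-3p, mmu-miR-133a-3p, mmu-miR-133b-3p, mmu-miR-206-3p and mmu-miR-499-5p (from here on without the species prefix) were followed across mouse sclera, whole eye and retina after form deprivation, in which a diffuser blurs vision and the eye grows too long. They were taken by name from the array's annotation and are 5 of its 696 mouse miRNAs. All mice were C57BL/6J and 34 days old. The diffuser was worn over the right eye for 10 days from postnatal day 24, and the uncovered left eye was the control. The 24 single-colour arrays held sclera (3 titled myopia, 3 titled control), whole eye (6 myopia, 6 control) and retina (3 titled myopia, 3 titled control). For sclera and retina the sample titles call myopia what the source, phenotype and description fields call control, and the reverse, so the direction of their arm differences is unsettled and "titled" marks it. For whole eye the title, source and phenotype name 1 arm, and a sentence in the description names the other. The labels give 15 mice in all, with 9 for sclera, 6 for whole eye and 9 for retina, so sclera and retina shared mice. The labels do not say which animal or pool each array held, and the main fits took all arrays as unpaired. The p-values therefore measure only the spread between these arrays, which may be partly technical.

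These miRNAs are known as myomiRs because striated muscle holds far more of them than other tissues do. The related miR-1 and miR-206 and the paired miR-133 copies are transcribed together from a few loci under muscle transcription factors, and they act in myoblast differentiation and proliferation. miR-206 is largely restricted to skeletal muscle, while miR-1 and miR-133 are found in heart as well. miR-499 is encoded within a myosin heavy chain gene and is known for slow-twitch muscle and heart. The eye carries its own striated muscle, since the extraocular muscles insert on the sclera.

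The mature sequences below, from RefSeq on GRCm38.p6, show what the probes had to tell apart, with the seed (bases 2 to 8) in capitals. Of the 5 members, 3 had an entry in that table.
miR-133b-3p: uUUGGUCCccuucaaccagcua
miR-206-3p: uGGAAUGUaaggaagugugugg
miR-499-5p: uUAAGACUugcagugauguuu
The 3 seeds differ from one another. miR-206-3p lies at chr1:20679055-20679076 and miR-133b-3p at chr1:20682834-20682855, both on the plus strand, and their hairpins are 3686 bases apart within the long noncoding RNA gene Lincmd1. miR-499-5p lies at chr2:155622893-155622913 on the plus strand, within the annotated bounds of Myh7b, a myosin heavy chain gene.

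Each member was read by 2 probes of different length, with 10 spots each. The probes of miR-206-3p are shown because they carry a repeat, in capitals, that probes of unrelated miRNAs on this array share.
miR-206-3p, shorter probe: cCACACACttcctta
miR-206-3p, longer probe: cCACACACttccttac
miR-574-5p, shorter probe: acacactCACACACaca
miR-1187, shorter probe: ttacacacataCACACAC
The longer miR-206-3p probe lies at chr1:20669142-20669157 in the files' mm9 positions. It is complementary to bases 7 to 22 of the mature miRNA, its 3′ end, so that most of the seed is outside the probe. The longer probe of miR-133b-3p covers bases 4 to 22 and that of miR-499-5p bases 1 to 21. miR-133a-3p and miR-133b-3p are known to differ only in their last base, so each probe set may bind both, and how much of each signal came from the other was not tested.

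Levels are log2 values of a miRNA's summed signal over the array's 75th percentile of miRNAs detected on all 24 arrays, so a level of 0 equals that percentile. Between 274 and 317 miRNAs were detected on the sclera arrays, 305 to 357 on the whole-eye arrays and 353 to 401 on the retina arrays, and 237 were detected on every array. Precision was limited by the number of arrays. The fibroblast and neural retina marker sums followed the labelled tissues, and other marker lists were seen in all 3. Fibroblast miRNAs (miR-199a-3p, miR-199a-5p, miR-214-3p and miR-140-3p) summed to 16.6 to 20.7 times the 75th percentile in sclera, against 1.60 to 3.30 in whole eye and 0.395 to 0.597 in retina. Of these, miR-140-3p had about the same mean log2 level in whole eye as in retina (-1.44 and -1.45). Neural retina miRNAs (miR-124-3p, miR-9-5p, miR-183-5p, miR-182-5p and miR-96-5p) summed to 2.60 to 15.8 in sclera, 88.5 to 104 in whole eye and 187 to 225 in retina. Each tissue, and each arm within a tissue, sat at its own positions on all 3 slides. Neither tissue nor arm can therefore be told apart from position. Retina titled control replicate 1 stood apart from the other titled control retinas, as described with miR-206-3p.

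The first question was how the muscle miRNAs, taken as a gauge of attached eye muscle, differed between tissues. Whether their levels measure attached muscle was not tested. miR-1a-3p, miR-133a-3p and miR-133b-3p were highest in sclera, intermediate in whole eye and lowest in retina. In the main fit, sclera levels were about 21.0 to 22.1 times those of retina and 2.80 to 3.20 times those of whole eye. The sizes changed with the processing, as given at the end. miR-206-3p, the skeletal muscle miRNA, was also highest in sclera but did not separate whole eye from retina. miR-499-5p went the other way, with no sclera array above background. In bulk RNA of this kind, fewer cells of a type and less RNA per cell cannot be told apart.

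miR-1a-3p, which promotes muscle differentiation, had log2 levels of 1.37, 1.0 and 0.34 in titled myopia scleras and 0.48, 1.02 and -0.02 in titled control scleras. In whole eye its lowest, median and highest levels were -1.05, -0.99 and -0.86 in myopia and -0.86, -0.61 and -0.32 in control eyes. In retina they were -3.95, -3.90 and -4.01 in titled myopia and -4.58, -3.45 and -2.70 in titled control samples. The 3 tissues did not overlap, whereas the 2 arms overlapped within each tissue.

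**Figure D1:**
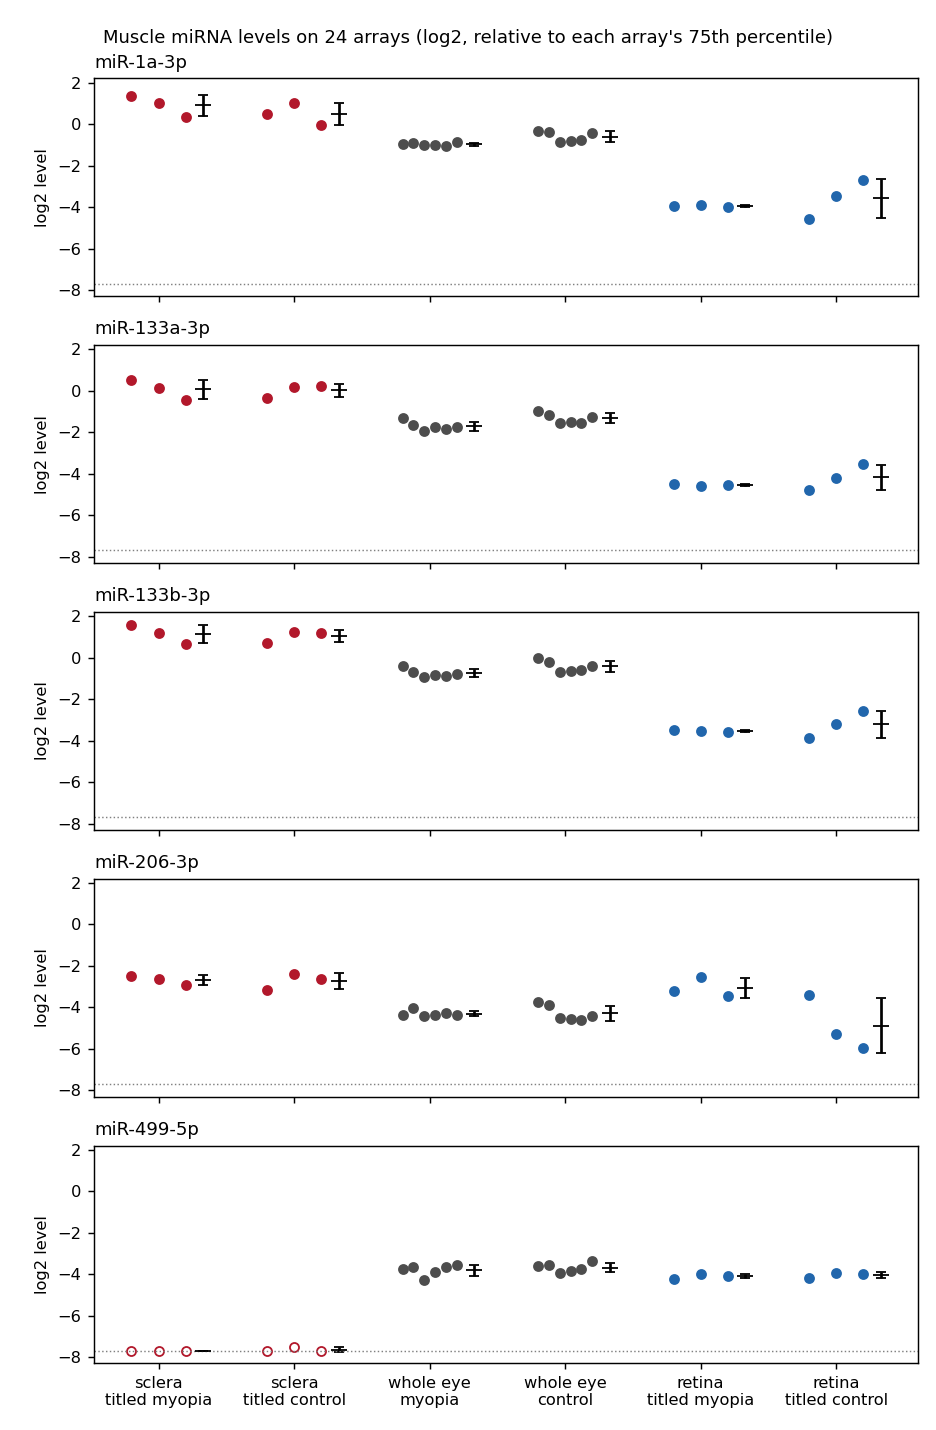
The log2 level of each muscle miRNA (vertical axis, relative to each array's 75th percentile) on the 24 arrays, by tissue and arm. Points are arrays (open where the miRNA was not detected), bars are mean ± SD and the dotted line is the floor at -7.69. miR-1a-3p, miR-133a-3p and miR-133b-3p step down over the tissues, while miR-499-5p sits at or near the floor in all 6 sclera arrays.

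miR-133a-3p, which favours myoblast proliferation and is made from the same transcripts as miR-1, had levels of 0.51, 0.12 and -0.43 in titled myopia scleras and -0.34, 0.18 and 0.21 in titled control scleras. Its whole-eye levels ran from -1.96 over a median of -1.74 to -1.30 in myopia eyes and from -1.56 over -1.37 to -0.97 in control eyes. Retinas held -4.48, -4.58 and -4.56 in the titled myopia arm and -4.77, -4.19 and -3.54 in the titled control arm. The order of the tissues was that of miR-1a-3p, again with no overlap between tissues.

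miR-133b-3p, the partner of miR-206-3p at its locus, had levels of 1.55, 1.20 and 0.67 in titled myopia scleras and 0.70, 1.26 and 1.19 in titled control scleras. The whole-eye levels ran from -0.93 over a median of -0.82 to -0.39 in myopia eyes and from -0.67 over -0.48 to -0.03 in control eyes. Retina levels were -3.50, -3.52 and -3.56 in titled myopia samples and -3.87, -3.21 and -2.56 in titled control samples. In all 3 miRNAs the titled myopia retinas lay close together and the titled control retinas spread widely, with replicate 1 lowest and replicate 3 highest.

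Of the 426 miRNAs tested over the 24 arrays with limma and Benjamini-Hochberg adjustment, 89.2% differed between sclera and retina at an adjusted p under 0.05, with 30.5% higher and 58.7% lower in sclera. Of the miRNAs that passed, 34.2% were higher, a share that was 46.0% under quantile normalization and 48.9% with scaling on all miRNAs. All 4 members tested were higher in sclera and 0 lower. Their median difference was 4.43 on the log2 scale, against -0.81 over all miRNAs tested. The log2 difference was 4.46 for miR-1a-3p (SE 0.23, limma adjusted p = 1.73e-13), 4.39 for miR-133a-3p (SE 0.18, limma adjusted p = 3.54e-15) and 4.46 for miR-133b-3p (SE 0.19, limma adjusted p = 3.54e-15). For these 3, every one of the 6 sclera arrays was above the highest retina array. miR-206-3p differed less, by 1.27 (SE 0.30, limma adjusted p = 5.12e-04), and 2 of 6 sclera arrays were above the highest retina array.

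Between sclera and whole eye, 70.9% of the 426 miRNAs differed, with 30.8% higher and 40.1% lower in sclera. The share of higher miRNAs among those that passed was 43.4%, and 54.5% with scaling on all miRNAs. All 4 members tested were higher in sclera and 0 lower, by 1.48 for miR-1a-3p (limma adjusted p = 1.21e-06), 1.56 for miR-133a-3p (limma adjusted p = 1.55e-08), 1.68 for miR-133b-3p (limma adjusted p = 5.97e-09) and 1.59 for miR-206-3p (limma adjusted p = 1.20e-05). The 4 differences were close to each other, and for each of these miRNAs all 6 sclera arrays were above all 12 whole-eye arrays. Their median of 1.57 stood against -0.15 over all miRNAs tested.

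Between whole eye and retina, 88.0% of miRNAs differed, with 23.0% higher and 65.0% lower in whole eye. Among those that passed 26.1% were higher, against 39.9% under quantile normalization and 43.1% with scaling on all miRNAs. Of the 4 members tested 0 were lower, and the 3 that were higher were miR-1a-3p by 2.98 (limma adjusted p = 2.73e-11), miR-133a-3p by 2.84 (limma adjusted p = 1.19e-12) and miR-133b-3p by 2.79 (limma adjusted p = 1.99e-12). miR-206-3p had a difference of -0.32 with a 95% interval from -0.86 to 0.22 (limma adjusted p = 0.246). The retina levels of miR-206-3p ran from -5.96 to -2.54 and took in all of its whole-eye levels, which ran from -4.61 to -3.75.

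**Figure D2:**
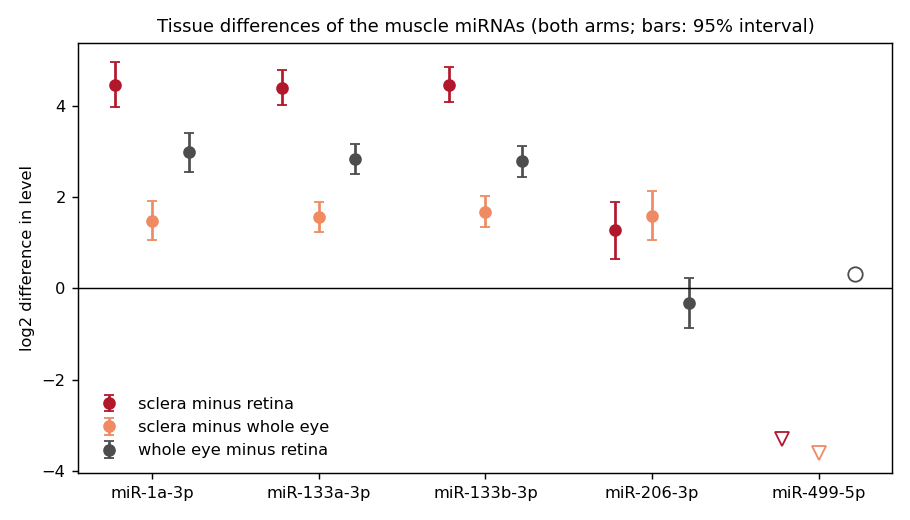
Differences in log2 level between tissues (vertical axis) for the 5 muscle miRNAs, both arms together. Filled points carry 95% intervals. The open triangles give the bound for miR-499-5p, which no sclera array detected, and its open circle a difference with no test. Of the 5, miR-499-5p is the one below 0 in sclera against both other tissues.

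miR-499-5p was detected on 0 of 6 sclera arrays, 12 of 12 whole-eye arrays and 6 of 6 retina arrays. Its processed signals in sclera were 1.86, 1.49 and 0.37 in titled myopia and 0.21, 6.87 and -0.05 in titled control samples, which is background. In whole eye the signals ran from 62.0 over a median of 100.35 to 118.1 in myopia eyes, and from 73.7 over 100.65 to 167.8 in control eyes. In retina they were 95.7, 139.4 and 94.0 in titled myopia and 88.9, 111.0 and 112.7 in titled control samples.

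Scaled to the array, miR-499-5p averaged a log2 level of -3.74 ± 0.24 in whole eye (SD, n = 12) and -4.06 ± 0.11 in retina (SD, n = 6). The whole-eye levels ran from -4.30 to -3.38 and overlapped the retina levels, which ran from -4.21 to -3.93. The level in sclera was at least 12.2-fold lower than in whole eye and at least 9.76-fold lower than in retina. These are bounds set by the lowest signal detected on each sclera array, and, since miR-499-5p was chosen for this pattern, they are given with no test. The 2 probes of miR-499-5p read the same pattern, at -0.16 to 4.27 in sclera, 36.2 to 94.3 in whole eye and 50.3 to 77.6 in retina for the longer and -0.48 to 2.59, 25.8 to 73.5 and 38.7 to 61.8 for the shorter.

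The other miRNAs linked to muscle gave a mixed picture. Of 17 listed, 6 were on the array and 3 could be tested. miR-133a-5p, the opposite strand of miR-133a-3p, was detected on 6 of 6 sclera, 7 of 12 whole-eye and 0 of 6 retina arrays. It averaged -4.44 in sclera, and all retina arrays stood at the fit's floor of -7.69, a difference of 3.25 on that floored log2 scale. The p-value of this difference is left out, because the floor set every retina value and gave them no spread. The lowest signal detected on each retina array averaged -9.71 and so lay below that floor. Set against it, miR-133a-5p was at least 38.4-fold higher in sclera, a bound that was not tested. miR-378-3p and miR-378-5p, which are made within the gene of a metabolic coactivator and are abundant in muscle, were lower in sclera than in whole eye by 0.26 (limma adjusted p = 2.12e-04) and 0.27 (limma adjusted p = 0.00192) on the log2 scale. The myosin-encoded miR-208a-3p and miR-208b-3p, kin of miR-499-5p in heart and slow muscle, were detected on no array, and neither was miR-1b-5p. The smooth muscle miRNAs miR-143-3p and miR-145-5p were higher in sclera than in retina, by 3.14 (limma adjusted p = 4.53e-15) and 3.41 (limma adjusted p = 1.50e-15).

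The summed level of the 5 muscle miRNAs was 3.73 to 7.12 times the 75th percentile in sclera, 1.37 to 2.45 in whole eye and 0.297 to 0.489 in retina. Among scleras it was 7.12, 5.54 and 3.73 in titled myopia and 3.92, 5.74 and 4.59 in titled control samples. The titled myopia scleras took in the whole range of the titled control scleras, and the fibroblast sums of the 6 varied from 16.6 to 20.7. The neural retina sum on the same scleras was 11.2, 5.73 and 13.2 in titled myopia and 15.0, 15.8 and 2.60 in titled control samples. The part of either list in the muscle values was not tested.

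The pattern of each miRNA over the 6 groups was compared by its root mean square distance after centring, against the other 425 tested. The nearest to miR-1a-3p were miR-133a-3p at a distance of 0.12 log2 units and miR-133b-3p at 0.13. Next came miR-223-3p at 0.46, miR-152-3p at 0.47, miR-455-3p at 0.49, miR-146a-5p at 0.49 and miR-145-5p at 0.53. miR-206-3p was at rank 110 and miR-499-5p at rank 371. The nearest to miR-499-5p were miR-182-5p at 0.53, miR-183-5p at 0.56, miR-218-5p at 0.58, miR-124-3p at 0.59 and the probe set miR-582-5p_v17.0 at 0.63, while the other members ranked 372 to 416. In sclera 5 of 6 miR-499-5p values were at the floor, which enters these distances. Its centred means were 1.36 and 1.48 in whole eye and 1.06 and 1.12 in retina (myopia, then control). Only miR-582-5p_v17.0 was likewise higher in whole eye than in retina. The others named were higher in retina, as miR-182-5p was with 0.76 and 0.73 against 1.70 and 1.70.

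Within a tissue, arrays with more miR-1a-3p tended to have more of the miR-133 pair. Over the 12 whole-eye arrays, Pearson's r was 0.868 between miR-1a-3p and miR-133a-3p (adjusted permutation p = 9.67e-04, Spearman's rho 0.860 with adjusted permutation p = 0.00247), and 0.878 between miR-1a-3p and miR-133b-3p (adjusted permutation p = 9.67e-04, rho 0.860 with adjusted permutation p = 0.00247). Without the 2 arrays farthest from the median, r was 0.706 and 0.688. Between miR-133a-3p and miR-133b-3p it was 0.987 (adjusted permutation p = 0.0001, the smallest the resampling can give over these pairs, with the same value for rho). These were 3 of 10 pairs computed in that tissue. Control eyes 1, 2 and 6 had the 3 highest levels of each of these miRNAs. For scale, miR-1a-3p had a median r of 0.095 with the 287 other miRNAs detected on all whole-eye arrays, and miR-133b-3p and miR-133a-3p were its closest of all. All levels on an array share its scaling.

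For miR-206-3p and miR-499-5p the correlations in whole eye were lower, a difference that was not tested. Among the 287 they ranked 11 and 6 by r with miR-1a-3p. The 7 pairs that include either had r from 0.431 to 0.613, with adjusted permutation p from 0.0697 to 0.164. After removal of group and slide means, r between miR-1a-3p and miR-206-3p was 0.856 (adjusted permutation p = 0.00135). This was close to the 0.832 between miR-1a-3p and miR-133a-3p, and 8 of the 10 pairs passed. Without that removal, Spearman's rho between miR-1a-3p and miR-206-3p was 0.133 (adjusted permutation p = 0.682). Their r was then 0.55, and -0.26 without the 2 arrays farthest from the median. miR-206-3p averaged -4.30 ± 0.14 in myopia and -4.29 ± 0.37 in control eyes, while miR-1a-3p averaged -0.97 ± 0.07 in myopia and -0.60 ± 0.24 in control eyes (SD, n = 6 each).

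**Figure D3:**
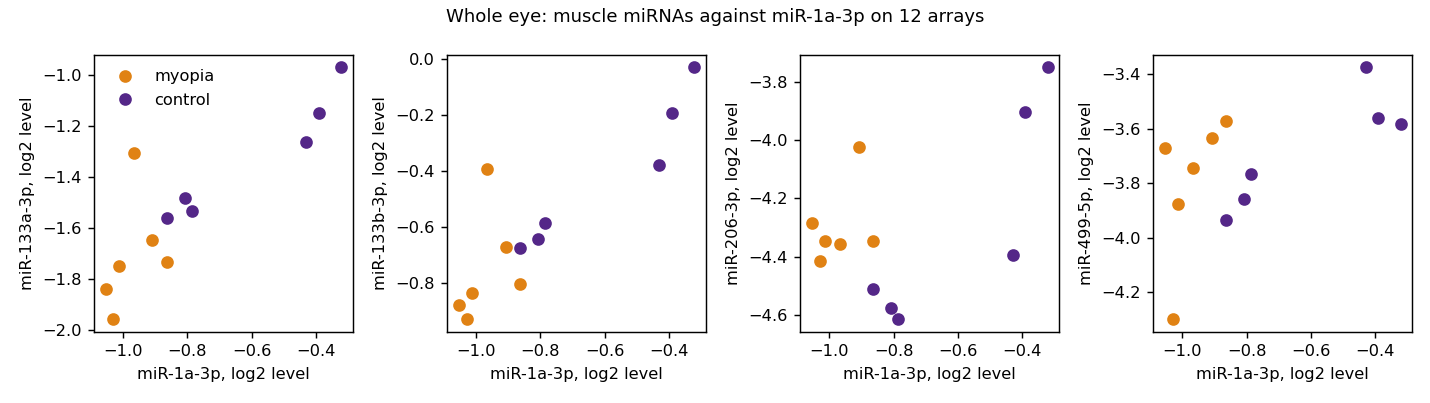
Each panel plots 1 muscle miRNA (vertical axis) against miR-1a-3p (horizontal axis), both as log2 levels, on the 12 whole-eye arrays. Points are arrays, coloured by arm. The miR-133 pair rises with miR-1a-3p at r of 0.868 and 0.878, and 3 control eyes lie at the top right.

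In retina, miR-1a-3p, miR-133a-3p and miR-133b-3p also ran together, with r from 0.973 to 0.993 over 6 arrays (adjusted exact permutation p of 0.0139 and 0.0185, Spearman's rho 0.829 to 0.943 with adjusted exact permutation p of 0.0833 and 0.194). Without the 2 arrays farthest from the median, r stayed between 0.950 and 0.991. miR-206-3p ran against them, at r of -0.817 with miR-1a-3p (adjusted exact permutation p = 0.0671), -0.883 with miR-133a-3p (adjusted exact permutation p = 0.0486) and -0.840 with miR-133b-3p (adjusted exact permutation p = 0.05, not under the threshold). Spearman's rho was -0.486, -0.714 and -0.543 in that order, and none passed (adjusted exact permutation p = 0.356, 0.272 and 0.330). Without the 2 farthest arrays, r with miR-133a-3p turned to 0.218, so it rests on them. With miR-1a-3p and miR-133b-3p r was then -0.879 and -0.908, over the few arrays that remained. On all retina arrays, miR-499-5p had r of 0.686 with miR-1a-3p, 0.573 with miR-133a-3p and 0.618 with miR-133b-3p. None of these passed (adjusted exact permutation p = 0.173, 0.229 and 0.229). Under quantile normalization they were 0.954, 0.962 and 0.956 (adjusted exact permutation p = 0.0104, 0.00992 and 0.00992), where every pair in retina passed.

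In sclera only the miR-133 pair passed among 6 pairs (r = 0.994, adjusted exact permutation p = 0.0333, rho 0.829 with adjusted exact permutation p = 0.117). Titled control replicate 3, the array with the lowest neural retina sum, had the lowest miR-1a-3p of the 6 scleras and the second highest miR-133a-3p. Between miR-1a-3p and miR-133a-3p r was 0.551 (adjusted exact permutation p = 0.313), and 0.996 without the 2 arrays farthest from the median.

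The arms were compared in each tissue fitted alone. In whole eye, 10.3% of 341 miRNAs were higher in myopia and 0% lower. None of the 5 members passed limma with Benjamini-Hochberg adjustment, and 2 had an unadjusted p under 0.05, as did 24.6% of all miRNAs. The arms are both eyes of the same 6 mice, but the labels do not say which arrays belong to 1 mouse, so the arrays were compared unpaired. With the replicate number as a block in the fit, miR-133a-3p passed at -0.29 (limma adjusted p = 0.0407) and no other member did. Of all miRNAs 13.2% passed in that fit. miR-1a-3p averaged -0.32 ± 0.11 in myopia and -0.04 ± 0.22 in control eyes on this tissue's own scale (SD, n = 6 each), and all 6 myopia eyes were below the control mean. The difference of -0.29 had a 95% interval from -0.50 to -0.07 (limma adjusted p = 0.106). The differences of miR-133a-3p and miR-133b-3p were -0.29 (limma adjusted p = 0.174) and -0.25 (limma adjusted p = 0.229), against a median over all miRNAs of 0.08. miR-206-3p and miR-499-5p had differences of 0.08 (95% interval -0.24 to 0.40) and -0.03 (95% interval -0.26 to 0.19). Under quantile normalization miR-1a-3p passed at -0.35 (limma adjusted p = 0.0145) and miR-133a-3p at -0.42 (limma adjusted p = 0.0422), while 96 of all miRNAs passed and 33.3% of these were higher, against 35 and 100% before. Scaling on all miRNAs gave -0.50 for miR-1a-3p (limma adjusted p = 0.0236), where 33 of all miRNAs passed, 32 higher and 1 lower.

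In sclera, 0% of 311 miRNAs passed in either direction and none of the 4 members tested did, nor at an unadjusted p under 0.05, as 2.25% of all miRNAs did. The titled myopia minus titled control differences were 0.58 for miR-1a-3p (95% interval -0.42 to 1.58), 0.21 for miR-133a-3p, 0.26 for miR-133b-3p and 0.22 for miR-206-3p, with limma adjusted p from 0.887 to 0.999. miR-499-5p was not tested there.

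In retina, 0% of 396 miRNAs passed in either direction, and none of the 5 members did. Of the members, miR-206-3p alone had an unadjusted p under 0.05, as did 5.05% of all miRNAs. Its processed signals were 193.6, 384.8 and 143.9 in titled myopia and 153.1, 43.1 and 28.7 in titled control retinas. On the retina fit's own scale the lowest titled myopia level was -2.74 and the highest titled control level -2.78, and on the 24-array scale these were -3.46 and -3.40, so the arms barely touched. The difference of 1.77 had a 95% interval from 0.08 to 3.46 (limma adjusted p = 0.537). Without titled control replicate 1 the difference was 2.40 (limma adjusted p = 0.0251), and 55 of all miRNAs passed. The differences of the other members were -0.43 for miR-1a-3p, -0.43 for miR-133a-3p, -0.37 for miR-133b-3p and -0.12 for miR-499-5p, with limma adjusted p from 0.761 to 0.826. Without titled control replicate 1 that of miR-1a-3p was -1.04 (limma adjusted p = 0.0450).

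**Figure D4:**
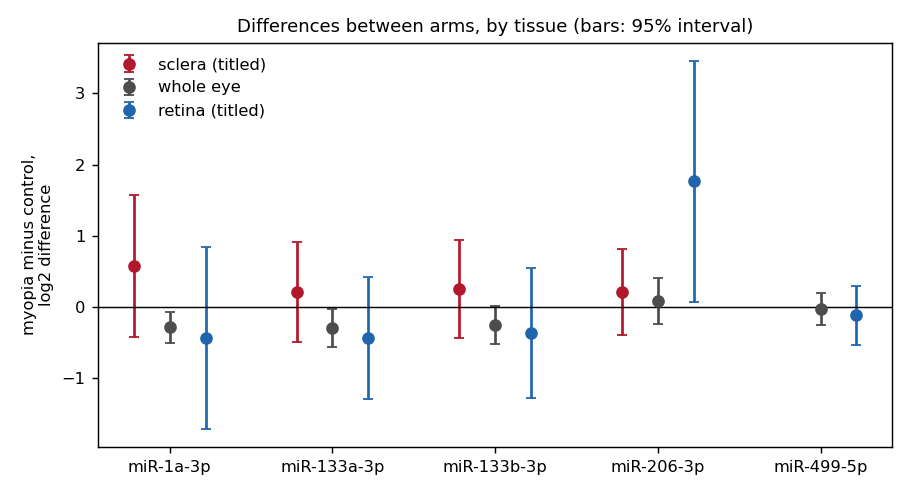
Differences between arms (myopia minus control, log2, vertical axis) for each muscle miRNA in sclera, whole eye and retina, with 95% intervals, each tissue fitted alone. Sclera and retina arms follow the titles, and miR-499-5p has no sclera value. The widest intervals are those of retina, and miR-206-3p there has the largest difference at 1.77.

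The arm difference of miR-206-3p was larger in retina than in whole eye by 1.82 (limma adjusted p = 0.0809), in a test where 1.17% of 426 miRNAs passed, and larger in retina than in sclera by 1.77 (limma adjusted p = 0.0937), where 1.64% passed. With the arms of retina turned to the other label fields, the retina minus whole eye value was -1.82 (limma adjusted p = 0.0150), where 81 of 426 miRNAs (19.0%) passed, all lower. Against whole eye, the arm differences of sclera gave 0 members past the threshold, where 2.35% of miRNAs passed. Of the 5 members, the count at an unadjusted p under 0.05 was 1 for retina against whole eye, 1 for retina against sclera and 0 for sclera against whole eye. Over all miRNAs 6.81%, 17.1% and 15.5% had such a p in these comparisons. Where sclera was compared, the 5 include miR-499-5p, which no sclera array detected and which stood at the floor on 5 of 6. Its sclera arm difference was therefore largely set by the floor.

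miR-206-3p stood apart from the other members in 1 more way in retina. Its shorter probe gave 46.1, 46.2 and 44.2% of its summed signal in titled myopia retinas and 45.3, 37.8 and 24.3% in titled control retinas. In sclera the share was 22.7 to 27.7% and in whole eye 23.1 to 34.1%. The retinas with the highest miR-206-3p signals were thus those where the shorter probe took the largest share.

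The repeat CACACAC, shown above in both miR-206-3p probes, is in probes of 1.87% of the 696 miRNAs, which are miR-206-3p and 12 others (miR-574-5p, miR-672-5p, miR-1187 and members of the miR-466 and miR-669 families). The 12 were gathered after the miR-206-3p values were seen, so they are described with no test. Their summed signal was 5923, 8337 and 4105 in titled myopia and 5098, 1065 and 503.3 in titled control retinas. Over the 6 retinas this is the same order as that of the miR-206-3p signal scaled to the array. Of the 8 that were detected on all retina arrays, 5 had that exact order, as did 4.86% of the 329 miRNAs so detected. The 329 include miR-206-3p itself and these 8.

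Titled control replicate 1 was with the titled myopia retinas in both measures. The bright corner control spots on these arrays read 486.7, 575.7 and 373.3 in titled myopia and 450.9, 195.9 and 247.8 in titled control samples, so the same 4 retinas were highest. In whole eye the 12 miRNAs summed to 0.744 to 1.60 times the 75th percentile in myopia and 0.204 to 0.679 in control eyes, and to 0.408 to 1.24 in sclera. What these probes and corner spots have to do with the miR-206-3p values was not tested.

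**Figure D5:**
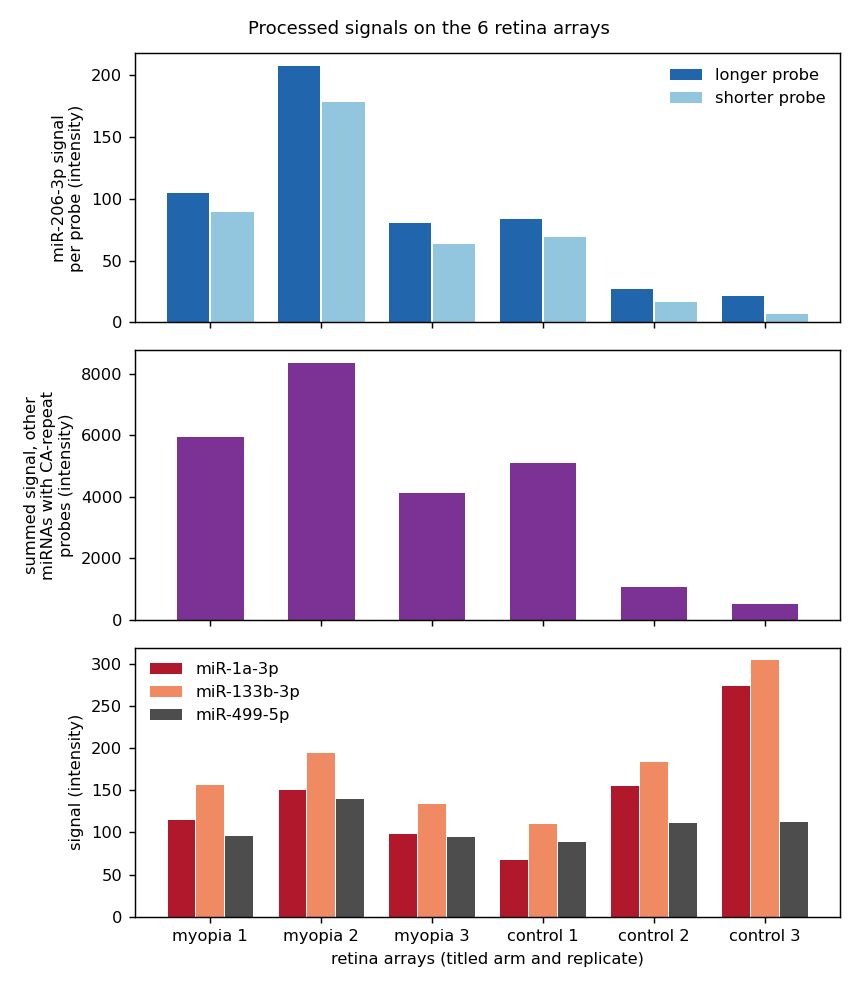
Processed signals (intensity) on the 6 retina arrays. The top panel shows both miR-206-3p probes, the middle panel the summed signal of 12 other miRNAs whose probes hold the same repeat, and the bottom panel 3 other muscle miRNAs. Titled control replicates 2 and 3 are low in the upper panels, and replicate 3 is high for miR-1a-3p and miR-133b-3p at the bottom.

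The tissue differences of miR-206-3p depended on its probe and on the retina arm. Sclera minus retina was 1.62 by the longer probe (limma adjusted p = 8.19e-06) and 0.68 by the shorter (limma adjusted p = 0.0797), a split added after the data had been seen. By title it was 0.38 over the myopia arms (limma adjusted p = 0.390) and 2.15 over the control arms (limma adjusted p = 9.56e-05). Whole eye minus retina was -0.89 by the shorter probe (limma adjusted p = 0.0108) and -1.23 over the myopia arms (limma adjusted p = 0.00419). Sclera minus whole eye kept its direction and passed in both probes and both arms, at 1.56 to 1.65.

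The slides gave the remaining check on the tissue steps. A slide held 1 array per arm of sclera and of retina, so the differences within a slide are given with no test. Over the 3 slides, sclera minus retina ran from 3.53 to 5.48 for miR-1a-3p and from 3.95 to 5.0 for miR-133a-3p. It ran from 4.0 to 5.11 for miR-133b-3p and from 0.76 to 1.96 for miR-206-3p. The whole eye minus retina value of miR-206-3p ran from -0.72 to 0.35, the latter on slide 3. Sclera minus whole eye was above 0 on all 3 slides for the 4 members tested elsewhere, at 0.91 to 1.90.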

How the data were processed

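MicroRNAs were measured on single-colour Agilent mouse arrays, 24 in all. Each deposited scanner file lists the intensity of every spot, written by Agilent Feature Extraction (version 11, per the submitters' processing notes). Per the file headers, that software took off background and a spatial trend and flagged every miRNA as detected or not. Outlier spots, which other flags in the deposited files mark, were left out. The authors' deposited value table holds log2 values per probe and does not state its scale. Its largest gap to the log2 scanner signal was 4.14 on sclera titled control replicate 1 and 0.178 on the rest, and its column medians ran from 3.18 to 4.07. The value table was an alternative only, and 0 of its columns were unmapped.

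Spot means were summed over the 2 probes of a miRNA, scaled to each array's 75th percentile among the miRNAs that all arrays of a fit detected (237 for all 24 arrays, 266 for sclera, 288 for whole eye, 329 for retina), floored at the median of the arrays' lowest detected signals and log2 transformed. A miRNA was tested when detected on 2 of every 3 arrays of a group. Tissue differences and differences of arm effects came from limma (3.58.1, R 4.3.3; two-sided, Benjamini-Hochberg) over all arrays in 6 title groups, and arm differences from each tissue alone, whose levels therefore have their own scale. The settings were tested on simulated data. Arrays of a group correlated at 0.884 to 0.997 and no pair held identical values. Correlations used 100000 resamples (12 arrays) or all pairings (6 arrays), two-sided. Python 3.11.15, numpy 2.4.6, pandas 2.3.3, scipy 1.17.1 and matplotlib 3.10.9 were used.

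The members, the lists and the alternatives were chosen with earlier results of these data known. Named miRNAs are the members, the 5 nearest in pattern to miR-1a-3p and to miR-499-5p, and list members. Deviations of same-numbered arrays of the 2 arms correlated at -0.39 to 0.63 in retina, -0.31 to -0.11 in sclera and -0.11 to 0.37 in whole eye. The medians were 0.38, -0.13 and 0.17, against -0.25, 0.12 and -0.03 for arrays of different number. These values do not settle whether the numbers pair the arrays. The labels tie no number to a mouse, so the main fits were left unpaired.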

Additional observations from a re-analysis of the deposited data

Results flagged for a closer look

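Of 10 groups of 6 whole-eye arrays examined (5 miRNAs in each arm), 1 held an array far from the others, and chance gives such an array in about 1 of 20 groups. It was miR-206-3p in myopia eye 2, at a log2 level of -4.02, against -4.42 to -4.29 in the other 5 myopia eyes. Control eyes 1 and 2 were higher, at -3.75 and -3.90.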

How the results depend on the processing

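The 3 tissue differences of miR-1a-3p, miR-133a-3p and miR-133b-3p kept their direction under all 38 other settings run for each. So did miR-206-3p for sclera minus whole eye. All of these passed in the settings other than the fits within a slide, which are given with no test. Their sizes moved. Sclera minus retina ran from 3.15 to 5.48 for miR-1a-3p, 2.89 to 5.18 for miR-133a-3p and 3.28 to 5.25 for miR-133b-3p. Sclera minus whole eye ran from 0.91 to 1.88, 1.18 to 1.79 and 1.23 to 1.91 in the same order. The whole eye minus retina value of miR-206-3p was 0.35 within slide 3. It passed as lower, as 1 member, by the shorter probe, in the myopia arms, and without retina titled control replicate 3 (-0.59). miR-499-5p read 0.67 for sclera minus retina and 0.44 for sclera minus whole eye under normexp background correction, where 50 was added to each spot and the median of all miRNAs was 0.85 and 1.01, against -0.81 and -0.15. The share of higher miRNAs among those that passed was then 78.3% and 86.6%, and 47.4% and 60.3% when the authors' deposited values were used.

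The counts of members past the threshold in the arms were 0 in the fits of the report. In whole eye, quantile normalization gave 2 lower, scaling on all miRNAs 1 and the replicate block 1 (miR-133a-3p at -0.29, limma adjusted p = 0.0407), where 28.2%, 9.68% and 13.2% of all miRNAs passed, against 10.3%. The block changed no other member's call. Quantile normalization gave 1 higher for retina minus whole eye (miR-206-3p, 1.51), and the turned arms 1 lower, at -1.82. Leaving out 1 array at a time gave 0 to 1 members for each arm count. Without retina titled control replicate 1, 1 member was higher and 1 lower in the retina arms and in retina minus sclera (2.51 and -1.29), and 1 higher in retina minus whole eye (2.57). Without retina titled myopia replicate 3, 1 was higher in retina minus whole eye (2.02). The causes were not tested.

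Pairs past the threshold in whole eye numbered 10 under quantile normalization, 9 with scaling on all miRNAs, 10 under normexp and 8 with group and slide means removed, against 3. In retina they numbered 10 under quantile normalization and 10 with scaling on all miRNAs, against 4, and in sclera 0 under quantile normalization and 0 under normexp, against 1. In retina r between miR-133a-3p and miR-206-3p was 0.19 under normexp and 0.22 without the 2 farthest arrays. Removal of group and slide means was not run in retina and sclera, where it leaves too few degrees of freedom. Scaling on all miRNAs moved the median arm difference of all miRNAs in whole eye to -0.13, against 0.08. Of all miRNAs, 35 passed in the whole-eye arms, against 96 under quantile normalization, 22 under normexp and 11 within slide 3, and 375 passed in whole eye minus retina, against 163 under normexp. For the differences of arm effects, 5 passed in retina minus whole eye, with 0 under normexp to 81 with the arms turned, 7 in retina minus sclera, with 0 under normexp to 82 without retina titled control replicate 1, and 10 in sclera minus whole eye, with 0 under normexp to 25 without that array. Detection counts of the members were the same with spots well above background.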
